A study of Mus musculus with 12 samples.

Results

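The cytochrome P450 families 2, 3 and 4 were examined in the proximal ileal epithelium of mice given TCDD, a dioxin whose effects run through the aryl hydrocarbon receptor (AhR). The genes were those annotated as protein-coding in GENCODE M21 whose symbol starts with Cyp2, Cyp3 or Cyp4 followed by a letter, with at least 10 counts summed over the 12 libraries. The rule left out 2 further genes of these families, which are not analysed here. Of 76 such genes in the files, 47 met the count minimum (29 in family 2, 6 in family 3 and 12 in family 4), against 21759 of 46078 genes in the files as a whole. The other 29 had fewer counts, and 11 of these had none in any library.

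Male C57BL/6 mice, 28 days old at the start and 56 days old at the end, received 7 gavages, spaced 4 days apart, of vehicle (sesame oil) or of 3, 10 or 30 µg/kg TCDD. Scrapings of the epithelium were sequenced in 3 libraries per group, and the labels name no genetic change. The labels do not say whether each library came from a separate animal, so p-values measure the spread between these libraries.

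P450 enzymes are haem proteins of the endoplasmic reticulum that insert an oxygen atom into drugs, steroids, retinoids and fatty acids, with electrons supplied by P450 oxidoreductase (Por) and cytochrome b5. In the gut epithelium families 2 and 3 meet swallowed chemicals before the liver does, and several of their genes are known targets of the nuclear receptors CAR and PXR. Family 4 enzymes mainly hydroxylate the terminal carbon of fatty acids and eicosanoids. The classical AhR targets belong to family 1, which is outside the set.

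The libraries held between 11695887 and 22180274 counts assigned to genes, and 15823 genes were tested. Levels are given as CPM, edgeR's counts scaled to library size, here after trimmed mean of M values (TMM) normalisation, and levels of different genes are compared only per kb of exon. Exon length merges all annotated exons of a gene, and the order of genes by level depends on this choice. Cyp1a1, the classical AhR target, was at 18.9 to 27.5 CPM in vehicle, 22.2 to 141.2 CPM at 3 µg/kg, 872 to 1332 CPM at 10 µg/kg and 2605 to 3247 CPM at 30 µg/kg, so the groups followed their dose labels from 10 µg/kg. Summed markers of enterocytes were at 37281 to 43288 CPM in vehicle and 35081 to 45336 CPM at 30 µg/kg. The distal ileal marker Fabp6 was at most 0.306 CPM in the vehicle, 10 and 30 µg/kg libraries but at 22.9 to 38.3 CPM in all 3 libraries of 3 µg/kg. Car1, a marker of the colon, was at 0 in 9 libraries but at 43.7 to 62.1 CPM in all 3 libraries of 10 µg/kg. The proximal markers Gata4 and Lct were abundant in vehicle (154 to 168 CPM and 3182 to 3337 CPM). Liver markers were near 0, with Alb at most at 0.216 CPM and the 7 liver markers summing to between 1.33 and 4.34 CPM.

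In vehicle the P450 genes together took 5552 to 5686 CPM, or 0.541% to 0.558% of the gene counts. Among the 47 genes, 20 had a vehicle mean above 10 CPM, 6 lay between 1 and 10 CPM, and 21 lay below 1 CPM. The 6 genes with the highest level per kb held 77.3% of the per-kb sum. Cyp4f14, which hydroxylates leukotriene B4 and related lipids, was the highest at 571 ± 53.2 CPM per kb (SD, n = 3). Cyp3a13, a drug- and steroid-oxidising enzyme, followed at 275 ± 20.7 CPM per kb and Cyp4v3, a fatty acid hydroxylase, at 258 ± 8.87 CPM per kb, which is a difference smaller than the SD of Cyp3a13. Cyp2b10, the textbook CAR target, was at 193 ± 14.8 CPM per kb. Cyp3a11, the textbook PXR target, was at 137 ± 45.1 CPM per kb, and its 3 libraries lay at 186, 96.5 and 130 CPM per kb. Its merged exons span 5.09 kb, against 2802 nt for its longest transcript, so its place in this order depends on the length used. Cyp2d26 was at 111 ± 9.39 CPM per kb, and its 3 libraries lay within the range of Cyp3a11. Next came Cyp2c65, Cyp3a25 and Cyp4b1 at 92.8 ± 16.7, 76.4 ± 8.84 and 65.0 ± 5.88 CPM per kb. Cyp2c66, Cyp2c55 and Cyp4f40 completed the 12 most abundant at 31.3 ± 6.9, 28.6 ± 9.77 and 24.0 ± 2.59 CPM per kb. Among these last genes, neighbours in this order differed by less than the larger of their SDs. Summed over all 47 genes the level was 4299 to 6332 CPM at 3 µg/kg, 5071 to 5396 CPM at 10 µg/kg and 4973 to 6289 CPM at 30 µg/kg, and the 30 µg/kg range held the vehicle range within it.

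**Figure D1:**
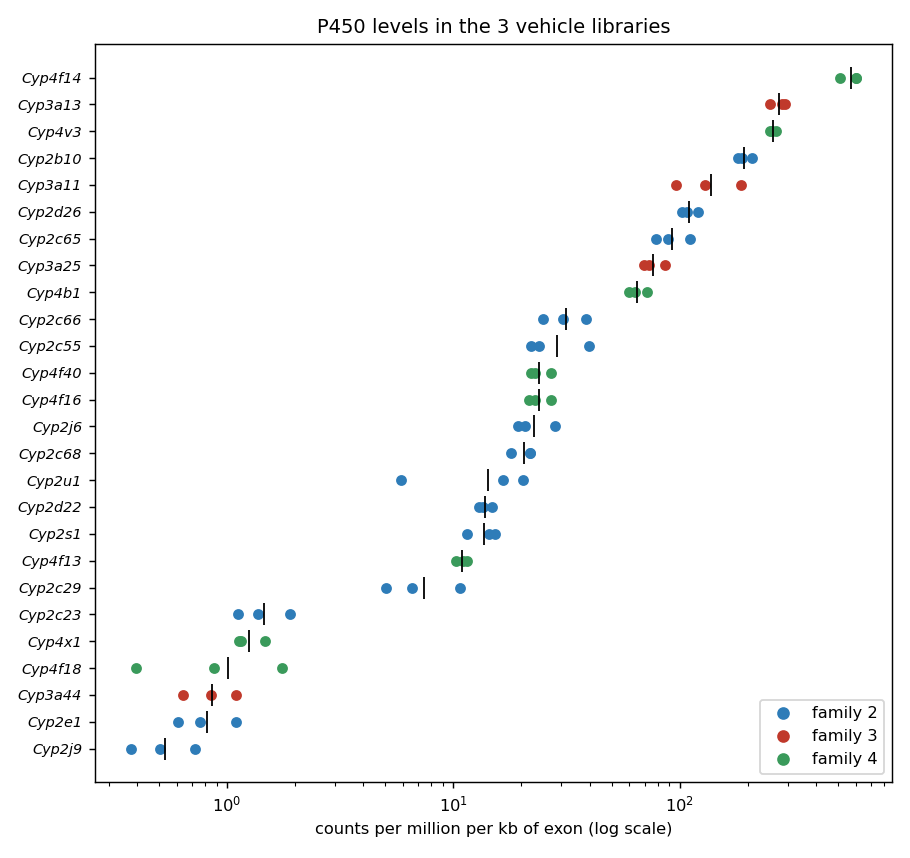
Level of each P450 gene with a vehicle mean of at least 1 CPM, in CPM per kb of exon on a log axis; dots are the 3 vehicle libraries, coloured by family, and the tick is their mean. Cyp4f14 stands highest at 571 CPM per kb, and Cyp2j9 is lowest of those drawn at 0.535 CPM per kb.

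The comparisons with vehicle asked which of these genes responded at each dose. The count filter passed 31 of the 47 genes, and 16 (Cyp2b19, Cyp2b23, Cyp2c38, Cyp2c67, Cyp2c70, Cyp2d9, Cyp2d10, Cyp2d12, Cyp2f2, Cyp2j11, Cyp2j13, Cyp2w1, Cyp3a16, Cyp3a59, Cyp4f15 and Cyp4f39) did not, all with a mean of at most 7.08 counts and at most 0.930 CPM in any library. A gene was called when its edgeR quasi-likelihood p, adjusted over all 15823 genes by the Benjamini-Hochberg method, was under 0.05 and it differed 1.5-fold or more. At 3 µg/kg none of the 31 was called, where 0.228% of all tested genes were, and at 10 µg/kg none was called, where 0.613% of all genes were. At an unadjusted p under 0.05 there were 4 at 3 µg/kg and 6 at 10 µg/kg, beside 1800 and 2511 of all 15823 genes. DESeq2 called 0 and 1 of them and limma-voom 0 and 0. At 30 µg/kg 6 of 31 were called (19.4%), against 3.97% of all genes tested. Cyp2j6, Cyp2j9 and Cyp2s1 were higher and Cyp2d26, Cyp3a25 and Cyp4f16 were lower, so 9.68% of the 31 went each way, against 3.08% higher and 0.891% lower among all genes. A slope over the dose ranks 0 to 3 called 6 of 31 (19.4%), against 3.29% of all genes, with 4 rising (12.9% against 2.53%; Cyp2j6, Cyp2j9, Cyp2s1 and Cyp3a13) and 2 falling (6.45% against 0.752%; Cyp2d26 and Cyp3a25). The median log2 change of the 31 was -0.15, -0.15 and -0.18 at 3, 10 and 30 µg/kg, beside 0.00, -0.01 and -0.02 over all genes tested. The libraries of 30 µg/kg did not overlap those of vehicle in 10 of the 31 genes (32.3%), against 26.7% of all genes. The same count was 2 at 3 µg/kg (6.45% against 15.4%) and 7 at 10 µg/kg (22.6% against 22.9%), near or below the background.

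**Figure D2:**
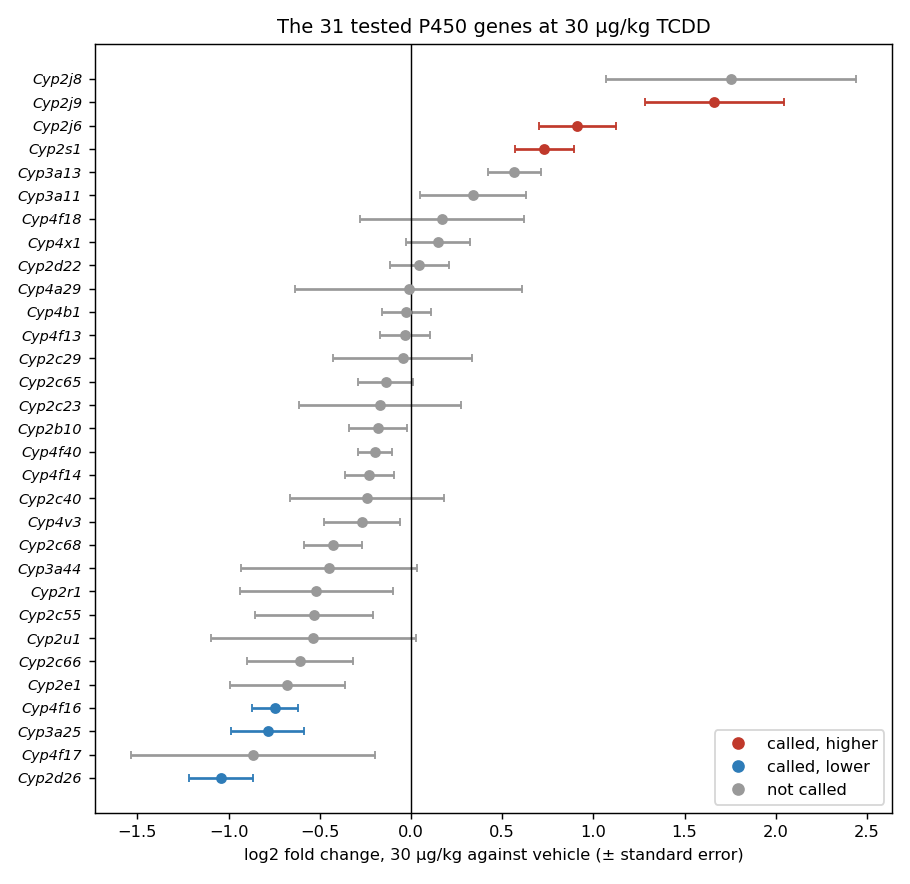
Log2 fold change at 30 µg/kg TCDD against vehicle for the 31 tested P450 genes, ordered by size; bars are ± 1 standard error of the edgeR fit. The 3 genes called higher (Cyp2j9, Cyp2j6 and Cyp2s1) and the 3 called lower (Cyp2d26, Cyp3a25 and Cyp4f16) are coloured, and Cyp2j8 has the largest estimate, 1.75, with an interval wide enough that it was not called.

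The Cyp2j subfamily, epoxygenases of arachidonic acid, held 2 of the 3 genes that rose. Cyp2j6 (ENSMUSG00000052914, chr4:96516138-96553661, minus strand) was at 74.5, 101.2 and 69.5 CPM in vehicle, 122.6, 69.7 and 77.8 CPM at 3 µg/kg, 128.8, 98.7 and 114.2 CPM at 10 µg/kg and 175.6, 161.5 and 124.7 CPM at 30 µg/kg. Every 30 µg/kg library stood above every vehicle library, while the lower doses overlapped vehicle. Its level rose 1.88-fold at 30 µg/kg (log2 change 0.91 ± 0.21, standard error, adjusted p = 0.0251, edgeR). Cyp2j9 (ENSMUSG00000015224, chr4:96568429-96591578, minus strand) is the neighbouring gene and was scarce, at 1.69, 2.40 and 1.26 CPM in vehicle, 4.75, 2.1 and 1.64 CPM at 3 µg/kg, 4.89, 2.46 and 3.24 CPM at 10 µg/kg and 6.17, 6.21 and 4.76 CPM at 30 µg/kg. The 10 and the 30 µg/kg libraries all lay above the vehicle libraries. The rise was 3.17-fold at 30 µg/kg (log2 change 1.66 ± 0.38, adjusted p = 0.0236), on 24 to 52 counts per vehicle library and 70 to 121 counts per 30 µg/kg library. Both genes also rose along the dose ranks, with a fitted log2 change over the whole range of 0.92 ± 0.19 for Cyp2j6 (adjusted p = 0.0137) and 1.61 ± 0.34 for Cyp2j9 (adjusted p = 0.0151). These slopes were no longer called without 30 µg/kg replicate 1 (adjusted p = 0.0544 and 0.0535). At 30 µg/kg both calls were lost when vehicle replicate 1, vehicle replicate 3, 30 µg/kg replicate 1 or 30 µg/kg replicate 2 was left out, with log2 changes still at or above 0.81 and 1.47 and adjusted p up to 0.0947 and 0.0897. Of the transcript windows of 50 nt, 99.6% of those of Cyp2j6 and all of those of Cyp2j9 occurred in no other gene.

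The remaining Cyp2j genes were near the detection limit. Cyp2j8 was at 0.157 to 0.462 CPM in vehicle and 0.444 to 1.38 CPM at 30 µg/kg, so the groups overlapped, and its log2 change of 1.75 ± 0.69 was not called (adjusted p = 0.159). Cyp2j11 and Cyp2j13 did not pass the count filter. Over the 12 libraries the log2 CPM of Cyp2j9 was most like that of Dnajb6 (Pearson r = 0.956) and of Cyp2j6 (r = 0.956), followed by Tom1l1 (r = 0.927). These points share libraries, doses and depth, and the likeness is given as a description.

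The bases upstream of the neighbouring genes Cyp2j6 and Cyp2j9 are shown because both genes rose, and those of Cyp2d26 and Cyp4f16, described below, because both fell under every setting tried. They are the 250 bases before the RefSeq start (build GRCm38.p6), written 5′ to 3′ on the gene's strand, with the AhR core letters GCGTG, on either strand (CACGC in reverse), in capitals.
Cyp2j6, chr4:96553652-96553901, minus strand: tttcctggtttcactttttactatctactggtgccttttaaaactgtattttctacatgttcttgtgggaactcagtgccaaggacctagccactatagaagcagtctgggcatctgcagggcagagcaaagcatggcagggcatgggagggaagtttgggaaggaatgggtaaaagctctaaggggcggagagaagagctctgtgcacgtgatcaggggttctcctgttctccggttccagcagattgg
Cyp2j9, chr4:96591486-96591735, minus strand: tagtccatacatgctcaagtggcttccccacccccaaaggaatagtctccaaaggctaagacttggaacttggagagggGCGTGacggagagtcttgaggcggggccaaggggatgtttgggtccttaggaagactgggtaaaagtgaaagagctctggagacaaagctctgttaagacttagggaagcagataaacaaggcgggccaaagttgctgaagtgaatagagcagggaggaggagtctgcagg
Cyp2d26, chr15:82794246-82794495, minus strand: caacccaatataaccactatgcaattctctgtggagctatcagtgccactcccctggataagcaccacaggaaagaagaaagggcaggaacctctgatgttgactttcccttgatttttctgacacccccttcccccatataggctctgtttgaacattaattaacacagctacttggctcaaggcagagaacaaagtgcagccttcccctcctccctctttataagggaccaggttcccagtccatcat
Cyp4f16, chr17:32536307-32536556, plus strand: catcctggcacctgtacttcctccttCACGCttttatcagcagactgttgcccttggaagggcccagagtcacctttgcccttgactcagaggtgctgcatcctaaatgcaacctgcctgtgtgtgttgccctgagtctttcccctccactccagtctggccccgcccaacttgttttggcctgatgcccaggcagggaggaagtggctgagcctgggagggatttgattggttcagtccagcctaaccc

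The Cyp2j9 window held GCGTG starting 171 bases before the start and the Cyp4f16 window held it 224 bases before, while the Cyp2j6 and Cyp2d26 windows held none. The windows of the other called genes, Cyp2s1, Cyp3a13 and Cyp3a25, and of Cyp4f14 are not printed and also held none. For Cyp2s1 the RefSeq start lay 388 bases from the GENCODE gene start. RefSeq windows existed for 41 of the 47 genes, and 8 of these held GCGTG on either strand, beside 28.2% of 32851 mouse windows of the same length. The E-box letters CACGTG stood 44 bases before the Cyp2j6 start (6.0% of all windows hold them), and the TATA letters TATAAA stood 31 bases before the Cyp2d26 start on the opposite strand, so that the printed strand reads tttata there (12.4% of all windows hold them on either strand). No match in the printed windows overlapped another. The RefSeq start lay 10, 93, 49 and 1 bases from the GENCODE gene start in Cyp2j6, Cyp2j9, Cyp2d26 and Cyp4f16. A match describes letters in a window, not a bound site.

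Cyp2s1, a P450 of epithelia outside the liver and a described AhR target, was the third gene that rose (ENSMUSG00000040703, chr7:25802475-25816913, minus strand). It was at 56.5, 75.7 and 71.0 CPM in vehicle, 88.8, 62.6 and 57.0 CPM at 3 µg/kg, 86.9, 70.6 and 69.9 CPM at 10 µg/kg and 107.2, 119.6 and 110.4 CPM at 30 µg/kg. Only the 30 µg/kg libraries stood clear of vehicle. The rise was 1.66-fold (log2 change 0.73 ± 0.16, adjusted p = 0.0193, edgeR), beside a log2 change of 7.01 ± 0.57 for Cyp1a1 in the same libraries. The slope over dose ranks (0.70 ± 0.17, adjusted p = 0.0285) was not called with the library index as a covariate, nor without vehicle replicate 1 or any of the 30 µg/kg libraries (adjusted p up to 0.0963). The call at 30 µg/kg was lost without vehicle replicate 1, 30 µg/kg replicate 2 or 30 µg/kg replicate 3 (adjusted p up to 0.0610, log2 change at least 0.62). The antisense gene Gm26707 overlaps it, and without a stated strand setting their reads cannot be told apart.

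The Cyp3a subfamily, whose enzymes oxidise steroids, bile acids and many drugs, moved in both directions. Cyp3a13 (ENSMUSG00000029727, chr5:137892932-137921619, minus strand) was at 742.7, 859.0 and 834.2 CPM in vehicle, 1080.3, 675.6 and 810.0 CPM at 3 µg/kg, 1025.5, 1072.9 and 1013.2 CPM at 10 µg/kg and 1200.3, 1296.1 and 1112.8 CPM at 30 µg/kg. The 10 and the 30 µg/kg libraries all lay above vehicle. It rose along the dose ranks (log2 change 0.59 ± 0.14 over the range, adjusted p = 0.0243, edgeR). At 30 µg/kg its log2 change of 0.57 ± 0.15 had an adjusted p of 0.0397 but, at 1.48-fold, fell short of the fold required. The rise over dose ranks was lost with upper-quartile scaling (0.58, short of 1.5-fold), with the library index as a covariate (adjusted p = 0.0517), and without vehicle replicate 1, 3 µg/kg replicate 2 or any of the 30 µg/kg replicates (adjusted p up to 0.0664).

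Cyp3a25 (ENSMUSG00000029630, chr5:145977194-146009618, minus strand) went the other way. It was at 151.8, 145.5 and 180.1 CPM in vehicle, 185.8, 105.9 and 106.9 CPM at 3 µg/kg, 134.3, 104.1 and 135.3 CPM at 10 µg/kg and 79.2, 102.3 and 95.4 CPM at 30 µg/kg. The 10 and the 30 µg/kg libraries lay below vehicle, and the fall at 30 µg/kg was 1.73-fold (log2 change -0.79 ± 0.20, adjusted p = 0.0378). It also fell over the dose ranks (log2 change -0.73 ± 0.19, adjusted p = 0.0385), a call lost with the library index as a covariate, with length and GC trends removed and without any single vehicle or 30 µg/kg library or 10 µg/kg replicate 2 (adjusted p up to 0.132). At 30 µg/kg this was the least firm of the 6 calls, and it was lost with the library index as a covariate (adjusted p = 0.0664), with length and GC trends removed (adjusted p = 0.0673) and without any single vehicle or 30 µg/kg library or 10 µg/kg replicate 3 (adjusted p up to 0.130). Only 73.2% of its transcript windows were its own, and reads that aligned to several places were not counted. Cyp3a11 was at 946, 492 and 660 CPM in vehicle and 530, 1126 and 997 CPM at 30 µg/kg, so its libraries overlapped widely (log2 change 0.34 ± 0.29, adjusted p = 0.540). Cyp3a44, the other tested member, was at 1.26 to 2.14 CPM in vehicle and 0.533 to 2.14 CPM at 30 µg/kg and was not called.

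Among the genes that fell, Cyp2d26 showed the clearest pattern over dose (ENSMUSG00000022445, chr15:82790101-82794294, minus strand). The Cyp2d subfamily is known for oxidising basic drugs. Cyp2d26 was at 216.5, 194.0 and 183.6 CPM in vehicle, 184.3, 120.9 and 104.7 CPM at 3 µg/kg, 118.2, 103.4 and 118.6 CPM at 10 µg/kg and 90.1, 110.7 and 88.2 CPM at 30 µg/kg. The libraries of 10 and 30 µg/kg all lay below vehicle, and the highest library of 3 µg/kg lay just inside the vehicle range. The fall was 2.06-fold at 30 µg/kg (log2 change -1.04 ± 0.18, adjusted p = 0.00383, edgeR), and the fit over dose ranks gave -1.02 ± 0.16 (adjusted p = 0.00276). At 10 µg/kg the log2 change of -0.80 ± 0.18 missed the threshold (adjusted p = 0.0678), although DESeq2 and several other settings called it. Cyp2d22, the other tested Cyp2d gene, was at 50.5 to 57.7 CPM in vehicle and 43.1 to 65.7 CPM at 30 µg/kg (log2 change 0.04 ± 0.16).

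The Cyp4f subfamily hydroxylates leukotrienes and long-chain fatty acids, and 1 of its 6 tested genes was called. Cyp4f16 (ENSMUSG00000048440, chr17:32536558-32551798, plus strand) was at 66.3, 70.6 and 83.1 CPM in vehicle, 102.8, 78.3 and 91.9 CPM at 3 µg/kg, 89.7, 78.8 and 76.8 CPM at 10 µg/kg and 48.3, 39.3 and 43.4 CPM at 30 µg/kg. The lower doses lay within or above the vehicle range, and only the 30 µg/kg libraries lay below it. The fall at 30 µg/kg was 1.68-fold (log2 change -0.75 ± 0.12, adjusted p = 0.00367, edgeR), and the fit over dose ranks did not call it (adjusted p = 0.154). Its transcript shares sequence with other genes, with 73.5% of windows its own. Cyp2d26 and Cyp4f16 were called at 30 µg/kg in all 10 alternative settings and with each of the 12 libraries left out.

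The other Cyp4 genes changed less. Cyp4f14, the most abundant P450, was at 1233 to 1457 CPM in vehicle and 1130 to 1254 CPM at 30 µg/kg, which overlap (log2 change -0.23 ± 0.13, adjusted p = 0.351). Cyp4f40 was at 54.8 to 67.1 CPM in vehicle and 47.9 to 56.1 CPM at 30 µg/kg (log2 change -0.20 ± 0.09, adjusted p = 0.242). Cyp4v3 was at 953 to 1019 CPM in vehicle and 746 to 946 CPM at 30 µg/kg, with no overlap but no call (log2 change -0.27 ± 0.21, adjusted p = 0.489), and at 3 µg/kg it ran from 660 to 1263 CPM. The gene Gm45753 overlaps Cyp4v3 on the same strand. Cyp4b1, an enzyme best known from the lung, was at 135 to 161 CPM in vehicle and 137 to 157 CPM at 30 µg/kg (log2 change -0.03 ± 0.14).

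**Figure D3:**
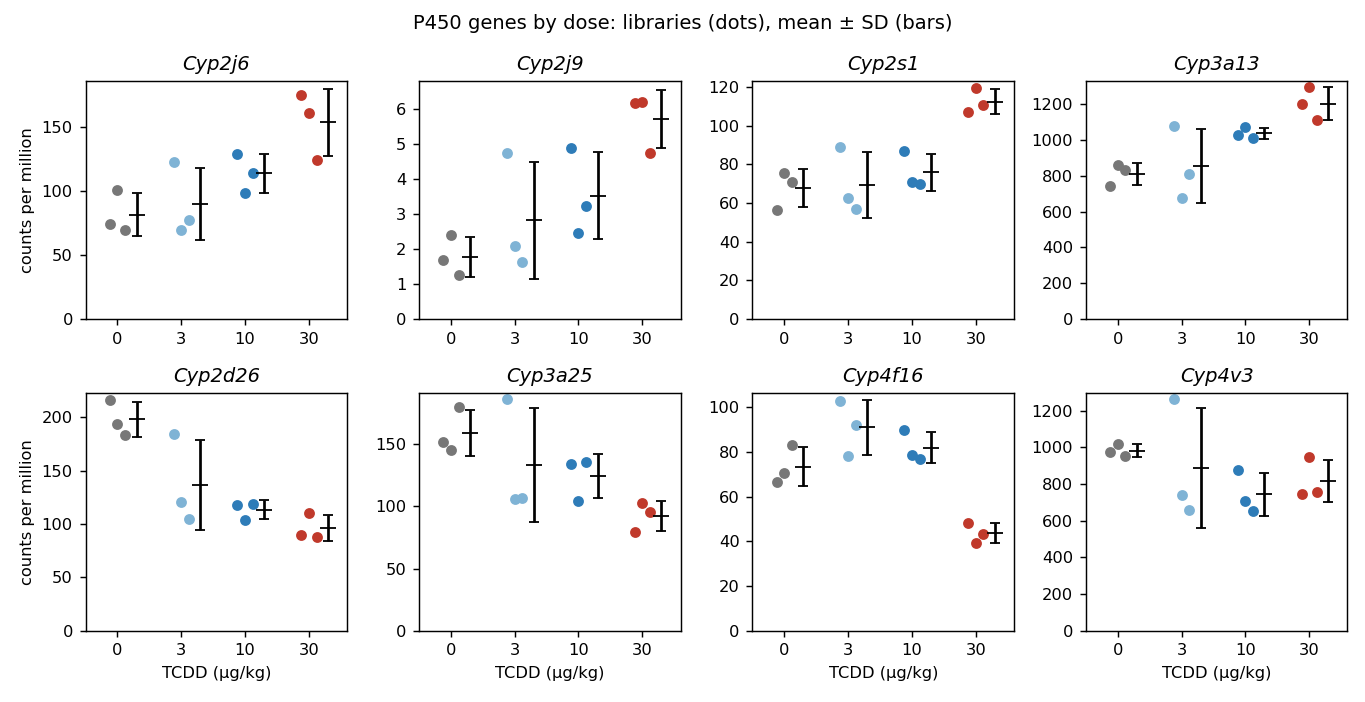
CPM of 8 P450 genes (TMM-scaled, linear axes from 0) by dose of TCDD in µg/kg; dots are libraries, 3 per dose, and the bars beside them are the mean ± SD. Cyp2j6, Cyp2j9, Cyp2s1 and Cyp3a13 are highest at 30 µg/kg, and Cyp2d26 is lower from 10 µg/kg. Cyp4f16 is lower at 30 µg/kg alone (39.3 to 48.3 CPM against 66.3 to 83.1 CPM in vehicle). In each panel the highest of the 3 libraries of 3 µg/kg is replicate 1.

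The CAR target Cyp2b10 and the Cyp2c subfamily, which oxidises arachidonic acid, retinoids and drugs, were not called at any dose. Cyp2b10 was at 382, 398 and 442 CPM in vehicle and 290, 463 and 325 CPM at 30 µg/kg (log2 change -0.18 ± 0.16, adjusted p = 0.552). All 7 tested Cyp2c genes had a log2 estimate below 0 at 30 µg/kg, from -0.61 to -0.05, with none called. Cyp2c66 was at 75.0, 48.3 and 59.5 CPM in vehicle and 27.3, 30.2 and 61.9 CPM at 30 µg/kg (log2 change -0.61 ± 0.29, adjusted p = 0.244), and without 30 µg/kg replicate 3 it was called lower (log2 change -1.08, adjusted p = 0.0277). Cyp2c55 was at 79.6, 44.1 and 47.8 CPM in vehicle, 78.6, 85.4 and 126.6 CPM at 10 µg/kg and 27.4, 27.5 and 63.0 CPM at 30 µg/kg. At this dose the log2 change of Cyp2c55 was -0.53 (adjusted p = 0.367), which was -1.06 without 30 µg/kg replicate 3 and -0.21 without vehicle replicate 1, neither of them called. At 10 µg/kg the log2 change of Cyp2c55 was 0.76 ± 0.32 (adjusted p = 0.276). There the 6 colon markers summed to 101 to 124 CPM, against 58.9 to 70.0 CPM in vehicle. Car1, without counts in vehicle, stood at levels (given above) close to the difference between these sums. Of the 5 tested colon markers 2 were called higher, where 0.613% of all genes were called, and 1 had an estimate below 0 (log2 change -0.60). Hoxb13 was at 0.362 to 0.979 CPM against at most 0.169 CPM in vehicle. The part of these markers in the level of Cyp2c55 was not tested. Cyp2c65 was at 151 to 214 CPM in vehicle and 139 to 197 CPM at 30 µg/kg. Cyp2c68 was at 31.2 to 37.8 CPM in vehicle and 22.3 to 29.2 CPM at 30 µg/kg without overlap, and was not called (log2 change -0.43 ± 0.16, adjusted p = 0.141). Only 56.7% of the windows of Cyp2c68 were its own, and an antisense gene, Gm23800, overlaps Cyp2c55.

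Markers of Paneth and enteroendocrine cells were higher at 30 µg/kg, where 3.08% of all genes tested were called higher. The 7 Paneth cell markers summed to 699 to 1064 CPM in vehicle and 2213 to 3049 CPM at 30 µg/kg, with 6 of 7 called higher. The 6 enteroendocrine markers summed to 127 to 137 CPM in vehicle and 206 to 235 CPM at 30 µg/kg, with 5 of 6 called higher. The 7 goblet cell markers summed to 12740 to 16670 CPM in vehicle and 16396 to 17825 CPM at 30 µg/kg, which overlap, with 4 of 7 called higher. The 7 distal ileal markers summed to 1365 to 1691 CPM in vehicle and 687 to 2037 CPM at 3 µg/kg. Their sum was 441 to 916 CPM at 10 µg/kg and 639 to 718 CPM at 30 µg/kg, below vehicle in all libraries of these doses. At 10 µg/kg none of the 7 was called, and at 30 µg/kg 1 was called higher and none lower. Their log2 estimates at 30 µg/kg were above 0 in 4 and below 0 in 3, with a median of 0.10. Of the 6 proximal markers 1 was called lower at 30 µg/kg, where 0.891% of all genes tested were, with log2 changes from -1.06 to 0.34. The part of these lists in the changes of the 6 called P450 genes was not tested. In bulk epithelium fewer cells of a type and less RNA per cell cannot be told apart. Leaving out the 3 and the 10 µg/kg groups, which hold the Fabp6 and Car1 signals, left the same 6 genes called at 30 µg/kg.

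The libraries also differed in the levels of circadian clock genes, and several P450 genes differed with them. A clock score was taken as the mean standardised log2 CPM of 9 genes (Dbp, Tef, Hlf, Per1, Per2, Per3, Ciart, Nr1d1 and Nr1d2) minus that of Arntl, Npas2 and Clock, which peak at the opposite time. It was positive (1.27 to 2.17) in vehicle replicates 2 and 3, in replicate 1 of 3 and of 10 µg/kg and in replicates 1 and 2 of 30 µg/kg, and negative (-2.35 to -0.69) in the other 6 libraries. In a fit with dose group and clock score, the score had an adjusted p under 0.05 in 7 of 31 P450 genes (22.6%), against 10.7% of all genes tested, 3 of them with a positive and 4 with a negative coefficient (9.68% and 12.9%, against 6.06% and 4.65%).

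Cyp2u1, a hydroxylase of long-chain fatty acids, had the largest coefficient. It was at 30.8, 106.0 and 86.5 CPM in vehicle, 79.8, 24.3 and 23.8 CPM at 3 µg/kg, 66.9, 23.5 and 18.8 CPM at 10 µg/kg and 50.4, 63.9 and 40.4 CPM at 30 µg/kg. The 6 libraries with a positive score were all at or above 50.4 CPM and the 6 with a negative score all at or below 40.4 CPM. Its coefficient was a log2 change of 0.42 ± 0.03 per unit of the score (adjusted p = 9.34e-07, edgeR), and no dose comparison called it. The antisense gene 4930534D22Rik overlaps Cyp2u1. Cyp2j6 (0.11 per unit, adjusted p = 0.0273) and Cyp2s1 (0.10 per unit, adjusted p = 0.00474) also rose with the score. Cyp2c29, Cyp2c55, Cyp2c66 and Cyp2c65 fell with it, by -0.22, -0.19, -0.17 and -0.09 per unit (adjusted p = 0.0214, 0.00999, 0.00747 and 0.0132). Cyp2u1, Cyp2s1 and Cyp2c66 passed with each of the 12 libraries left out. Cyp2j6 did not pass without vehicle replicate 2, any of the 3 µg/kg libraries, 10 µg/kg replicate 2 or 30 µg/kg replicate 3. Cyp2c55 and Cyp2c65 did not pass without vehicle replicate 1, and Cyp2c29 did not pass without vehicle replicate 1 or 2 or 10 µg/kg replicate 3. With the library index as a covariate Cyp2j6 and Cyp2c29 did not pass and the other 5 did.

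The dose changes were recomputed with the score as a covariate. Cyp2j6 then rose by 0.90 ± 0.14 on the log2 scale at 30 µg/kg (adjusted p = 0.00106), and Cyp2s1 by 0.74 ± 0.09 (adjusted p = 0.000148). Within the libraries of positive score alone, Cyp2j6 was at 101.2 and 69.5 CPM in vehicle and at 175.6 and 161.5 CPM at 30 µg/kg. With the covariate Cyp2c66 also passed the threshold at 30 µg/kg, at a log2 change of -0.64 ± 0.17 (adjusted p = 0.0283). The 6 genes called without the covariate were called with it.

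**Figure D4:**
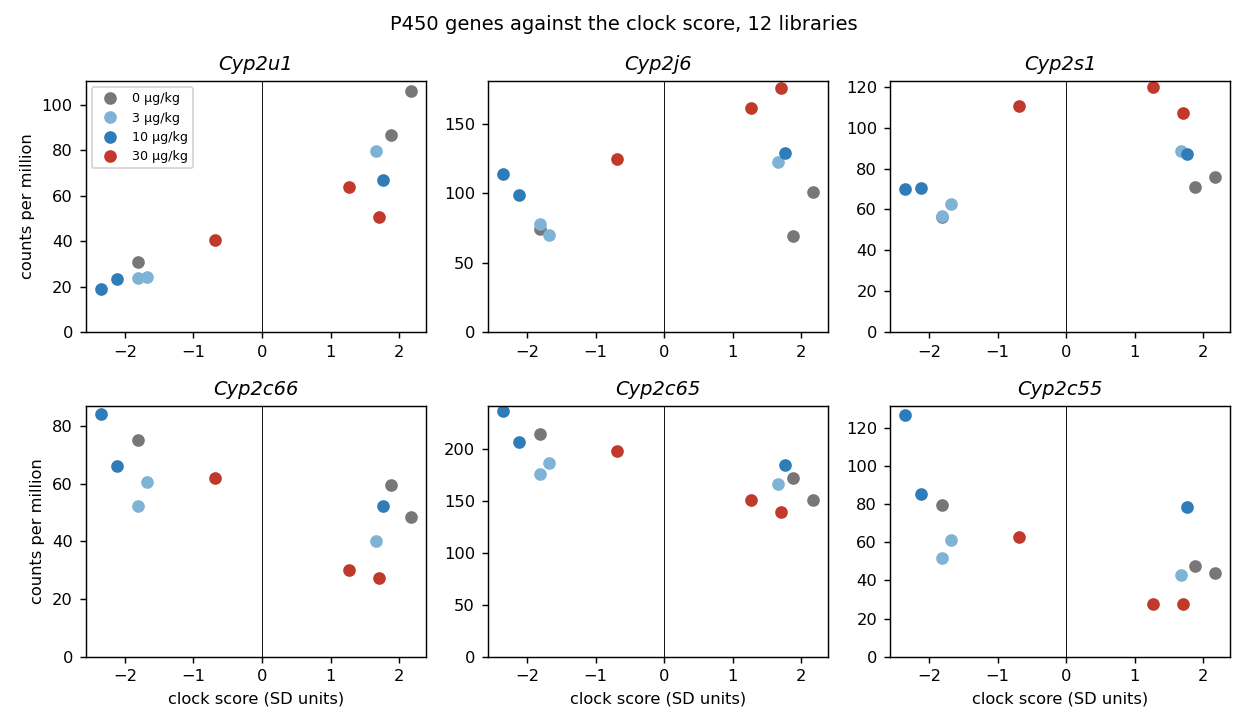
CPM of 6 P450 genes (linear axes from 0) against the clock score of each of the 12 libraries, coloured by dose of TCDD. The score is a difference between means of standardised log2 CPM and was not itself rescaled to its SD. Cyp2u1 separates the 6 libraries of positive score (50.4 CPM and above) from the 6 of negative score, and Cyp2c66, Cyp2c65 and Cyp2c55 lean the other way.

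The enzymes that serve P450s were examined in a list of 15 electron donors and haem genes. At 30 µg/kg 3 of the 15 were called, all higher, where 3.08% of all genes tested were called higher. Alas1, which makes the first and rate-limiting intermediate of haem, was at 113, 101.4 and 118.5 CPM in vehicle and 197.3, 178.1 and 186.0 CPM at 30 µg/kg, clear of vehicle (log2 change 0.75 ± 0.12, adjusted p = 0.00223, edgeR). Cpox, a later enzyme of haem synthesis, was at 36.9 to 49.4 CPM in vehicle and 68.2 to 79.7 CPM at 30 µg/kg (log2 change 0.81 ± 0.12, adjusted p = 0.00145). Cyb5a, the cytochrome b5 of the endoplasmic reticulum, was at 156.5 to 180.3 CPM in vehicle and 275.1 to 315.9 CPM at 30 µg/kg (log2 change 0.80 ± 0.13, adjusted p = 0.00257). The 30 µg/kg libraries of all 3 genes lay above vehicle, and the calls held in each alternative and with each library left out. Por, the main electron donor, was at 100.9, 184.9 and 216.6 CPM in vehicle and 267.4, 286.4 and 144.3 CPM at 30 µg/kg, and overlapped (log2 change 0.47 ± 0.39, adjusted p = 0.526). It rose with the clock score by 0.28 per unit (adjusted p = 3.5e-05). The median log2 change of the list was 0.10.

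**Figure D5:**
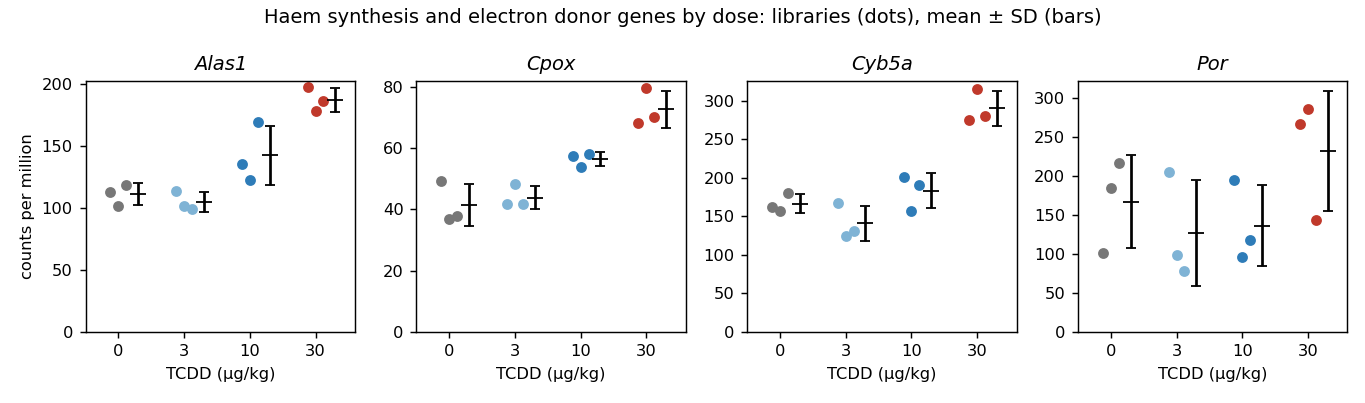
CPM (linear axes from 0) of Alas1, Cpox, Cyb5a and Por by dose of TCDD in µg/kg; dots are libraries, 3 per dose, and bars are the mean ± SD. In Alas1, Cpox and Cyb5a all 3 libraries of 30 µg/kg stand above vehicle, and in Por the dots of each dose are spread widely (144.3 to 286.4 CPM at 30 µg/kg).

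At 30 µg/kg 3.97% of all genes tested were called. Of 15 nuclear receptors and other factors known to control P450 genes, only Ppard, a fatty acid receptor, was called at this dose. It was at 204.2, 147.6 and 149.3 CPM in vehicle and 260.5, 222.4 and 282.6 CPM at 30 µg/kg (log2 change 0.61 ± 0.16, adjusted p = 0.0410, edgeR). The call was lost with the compared groups alone, with the library index as a covariate, and without vehicle replicate 2 or 3, 10 µg/kg replicate 3 or 30 µg/kg replicate 1 or 3. Nr1i2, which encodes PXR, was at 125.6 to 166.6 CPM in vehicle and 146.9 to 180.3 CPM at 30 µg/kg, and Nr1i3, which encodes CAR, was at 55.4 to 81.7 CPM and 66.8 to 93.0 CPM. Neither was called (log2 change 0.13 ± 0.16 and 0.22 ± 0.28). Ahr itself was at 20.7 to 28.1 CPM in vehicle and 29.7 to 40.5 CPM at 30 µg/kg without overlap, and missed the threshold (log2 change 0.55 ± 0.16, adjusted p = 0.0723). Of the 8 tested genes of the other P450 families, the AhR targets Cyp1a1 and Cyp1b1 were called at 30 µg/kg, both higher. At 3 µg/kg 1 of the 8 was called lower, where 0.228% of all genes tested were called. The lowest log2 change of these genes at 3 µg/kg, -7.57, was also the lowest of the 6 tested AhR targets, of which 1 was called lower. At 10 µg/kg 1 of these 6 AhR targets had an estimate below 0 (log2 change -2.14, not called). At 30 µg/kg all 6 estimates were above 0. Of the epoxide hydrolases, which open the epoxides that P450s make, Ephx1 (log2 change -0.03 ± 0.20) and Ephx2 (0.26 ± 0.21) were tested and not called.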

How the data were processed

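Total RNA of 12 samples was prepared for sequencing with the Ovation mouse kit and an added DNase treatment. The authors deposited raw counts of reads per Ensembl gene. The submitters' processing notes name FastQC 0.11.3, Trimmomatic 0.33, TopHat2 2.1.0, SAMtools 1.2.0, HTSeq 0.6.1, DESeq and build GRCm38. The annotation release and strand setting are not given in the sources used here. Entries for reads without a gene (25.0% to 30.1%), ambiguous reads (0.414% to 0.728%) and reads aligned to several places (31.4% to 38.8%) entered neither library sizes nor tests. Reads without a gene were 25.0% to 25.4% in the 30 µg/kg libraries, against 29.4% in each vehicle library. Reads aligned to several places were 36.2% to 38.8% at 30 µg/kg, against 32.5% to 34.6% in vehicle. The part of these differences in the calls at 30 µg/kg was not tested. Of 46078 genes, 45229 matched GENCODE M21, which gave symbols, positions and exon lengths.

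The tests used edgeR 4.0.16 (R 4.3.3, filterByExpr, TMM, quasi-likelihood, 1 fit over 4 groups of 3). Each dose was compared with vehicle, and a slope was fitted over dose ranks. Alternatives used DESeq2 1.42.0, limma 3.58.1 (voom), other scalings and filters, covariates and libraries left out. The script was tested on simulated data. Samples were grouped by the dose label, and replicate numbers follow accession order. Replicate libraries of a group differed by more than sampling noise. A count of 3 equals 0.135 to 0.257 CPM, and this limit covers counting error only.

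Genes named were those called at any dose or for the slope, the 12 most abundant per kb in vehicle, and those with at least 50 mean counts whose 30 µg/kg libraries did not overlap vehicle. Cyp2s1 was added as a described AhR target. Cyp2j8, Cyp2u1, Cyp2c29, Cyp2d22 and Cyp3a44 were named after their values were seen. The members, gene lists and clock score were chosen with earlier results of these data known.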

Additional observations from a re-analysis of the deposited data

How the results depend on the processing

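No paired analysis was possible because the labels give no replicate numbers. Each library index occurs once in every group, and the index was fitted as a covariate instead, with 5 P450 genes called at 30 µg/kg. At 30 µg/kg the count of P450 genes called ranged from 2 to 6 with 1 library left out, falling to 2 without vehicle replicate 1 or 30 µg/kg replicate 2 and to 3 without vehicle replicate 3 or 30 µg/kg replicate 1. The slope called 1 to 6, with 1 left without 30 µg/kg replicate 1, and called 3 with the library index as a covariate. At 10 µg/kg 1 gene (Cyp2d26, lower) was called without the low-count filter, by DESeq2, with the compared groups alone and with the clock score as a covariate, and 0 to 1 with a library left out. At 3 µg/kg 0 to 1 were called with a library left out (Cyp2d26, without 3 µg/kg replicate 1). The alternatives of the clock coefficient, of the electron donor and haem list and of the regulator list were added after seeing the data. The clock coefficient called 5 to 9 genes with a library left out. The electron donor and haem list stayed at 3. The regulator list gave 0 with the compared groups alone or the library index, 2 with the clock score and 0 to 1 with a library left out. With a library left out the log2 change at 30 µg/kg ran from -0.30 to 0.017 for Cyp2c65, turning positive without vehicle replicate 1. It ran from -0.087 to 0.049 for Cyp4b1, turning positive without vehicle replicate 2 or 30 µg/kg replicate 1, and none of these was called. The cause of these shifts was not tested. Over all genes, DESeq2 called 84, 262 and 800 at the 3 doses, and dropping the filter called 71 and 215 at 3 and 10 µg/kg, against 36, 97 and 628. At 3 µg/kg the compared groups alone called 6, the clock covariate 51, the library index 18 and the strict filter (10 counts or more in every library) 23. At 10 µg/kg the library index gave 59. With a library left out the counts ran from 19 to 162 at 3 µg/kg and from 45 to 198 at 10 µg/kg, both highest without 3 µg/kg replicate 1, and the slope called 297 to 640 against 520. Cyp2j8 had 3 to 10 counts per vehicle library and 5 to 27 per 30 µg/kg library.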
